A study of Mus musculus with 22 samples.

Results

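GABA-A receptors are chloride channels that open when GABA, the main inhibitory transmitter of the adult brain, binds to them. Each receptor is built from subunits of several families, most often α, β and γ, and the α subunit largely sets where the receptor sits on the neuron, how fast it closes and which drugs act on it. Receptors that hold the δ subunit lie outside synapses and carry the tonic current, and the α5 subunit carries much of it in hippocampal pyramidal cells, whereas α6 is a subunit of cerebellar granule cells. The RNAs of 7 subunits were followed here, namely α2 (Gabra2), α3 (Gabra3), α4 (Gabra4), α5 (Gabra5), α6 (Gabra6), β2 (Gabrb2) and δ (Gabrd). They were taken as listed genes from the 23037 genes of the count table, with the transcript of highest total standing for each gene, and all 7 were among the 11137 genes that reached 5 cpm (counts scaled to a common library size) in at least 2 of the 22 libraries.

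The hippocampus, cortex and cerebellum of wild-type (WT) and circTulp4-deficient (CD) mice were measured by CelSeq2, a 3′ RNA-seq method that counts the ends of transcripts. CircTulp4 is a circular RNA of the Tulp4 gene. In the CD line its splice acceptor was changed by CRISPR-Cas9, the line goes back to 1 founder male and was kept on a C57BL/6 background, the circle is lowered rather than abolished, and the age and sex of the sequenced mice and the C57BL/6 substrain are not given in the sources used here. From 8 mice, 4 of each genotype, came 4 CD and 3 WT hippocampus libraries, 4 CD and 4 WT cortex libraries, and 3 CD and 4 WT cerebellum libraries, and these mice received no treatment that the labels name.

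The libraries held between 2760846 and 8858937 counts, with 1 transcript per gene. The markers of the dissected regions followed the labels. All 7 markers of cerebellar granule cells and all 5 of Purkinje cells were higher in every cerebellum than in any other library, as were all 6 cortex markers in the cortex and 5 of 6 hippocampus markers in the hippocampus. The circle itself was not counted. The genotype labels were checked indirectly, by the library-scaled counts (cpm) that the Tulp4 transcript NM_054040, whose first exon overlaps the circle, had beyond those of NM_001103181. This excess was 2.71 to 3.69 cpm in the WT hippocampi and 0.42 to 0.57 cpm in 3 CD hippocampi. It was 3.97 cpm, from 16 counts, in the library labelled CD hippocampus of mouse m118, which by this measure goes against its label. The cortex and cerebellum of mouse m118, at 0.90 and 1.55 cpm, were below every WT library of their region. The genotypes were close there, with 0.14 to 1.29 cpm in CD and 1.45 to 6.02 cpm in WT cortices. In the cerebella they had 0.60 to 2.61 and 3.12 to 13.6 cpm. In the hippocampus of WT mouse m244 the choroid plexus marker Ttr stood at 8093 cpm, and Fibcd1, a marker of field CA1, at 34.3 cpm against 79.4 to 104 cpm in the other hippocampi. Hippocampal calls are therefore given with and without these libraries.

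The level of the subunits was first compared between regions, over both genotypes, with edgeR's quasi-likelihood test across all genes where a call needed an FDR below 0.01 and a difference of more than 2-fold. Between hippocampus and cortex, 1 subunit was higher in the hippocampus (Gabra5) and 2 were higher in the cortex (Gabra3 and Gabrd), where 4.03% and 4.38% of all genes tested passed in these directions. Between cerebellum and hippocampus, 2 subunits were higher in the cerebellum (Gabra6 and Gabrd) and 3 in the hippocampus (Gabra3, Gabra4 and Gabra5), beside 9.76% and 13% of all genes. Between cerebellum and cortex, the same 2 were higher in the cerebellum and the same 3 in the cortex, beside 9.7% and 12.9% of all genes. Gabra6 had at most 2.68 cpm outside the cerebellum, and Gabrd at most 4.80 cpm in the hippocampus. Both therefore passed the 5 cpm filter only through regions in which they were higher, which limits the comparison of their calls with these shares. At an FDR below 0.01 and any fold change, 5, 6 and 5 of the 7 subunits differed in these 3 comparisons, against 25.9%, 50.7% and 51.7% of all genes. Between hippocampus and cortex this count includes Gabra2 (FDR = 0.0064), whose FDR reached 0.018 with 1 library left out. The bulk counts do not tell fewer cells of a type from less RNA per cell.

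**Figure D1:**
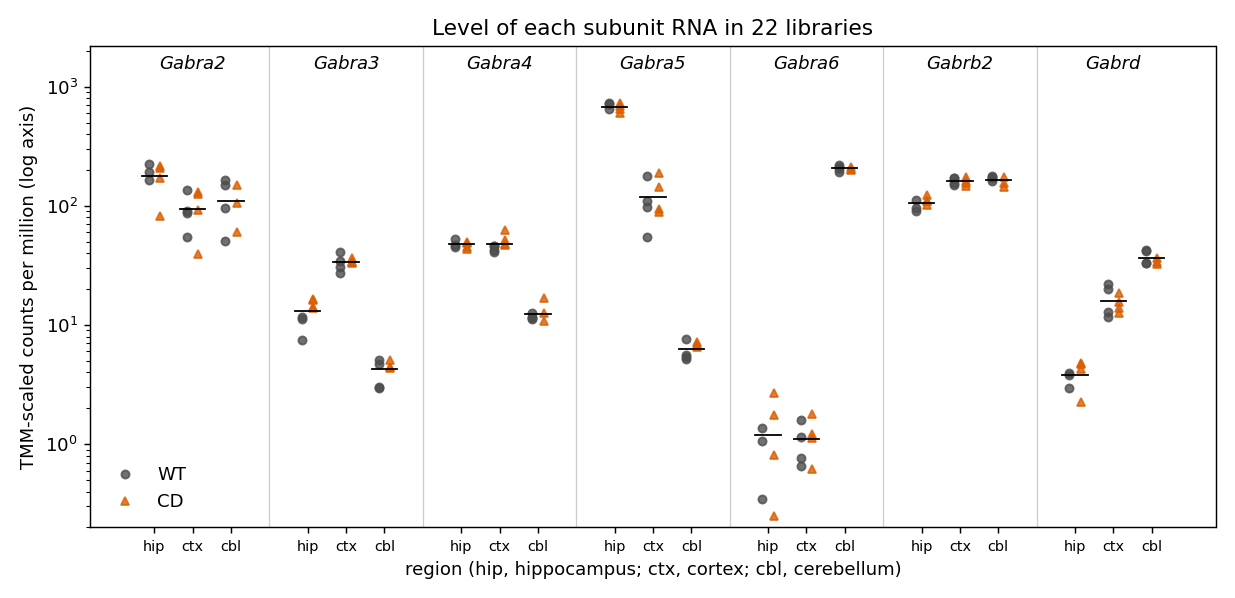
TMM-scaled cpm (log axis) of 7 subunit RNAs in each library of the hippocampus (n = 7), cortex (n = 8) and cerebellum (n = 7). Grey circles are WT libraries, orange triangles are CD libraries, and each black line is the mean of a region. Gabra5 falls and Gabra6 and Gabrd rise toward the cerebellum, and the WT and CD symbols intermingle in most columns, apart from Gabra3 in the hippocampus and Gabra4 in the cortex.

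**Figure D2:**
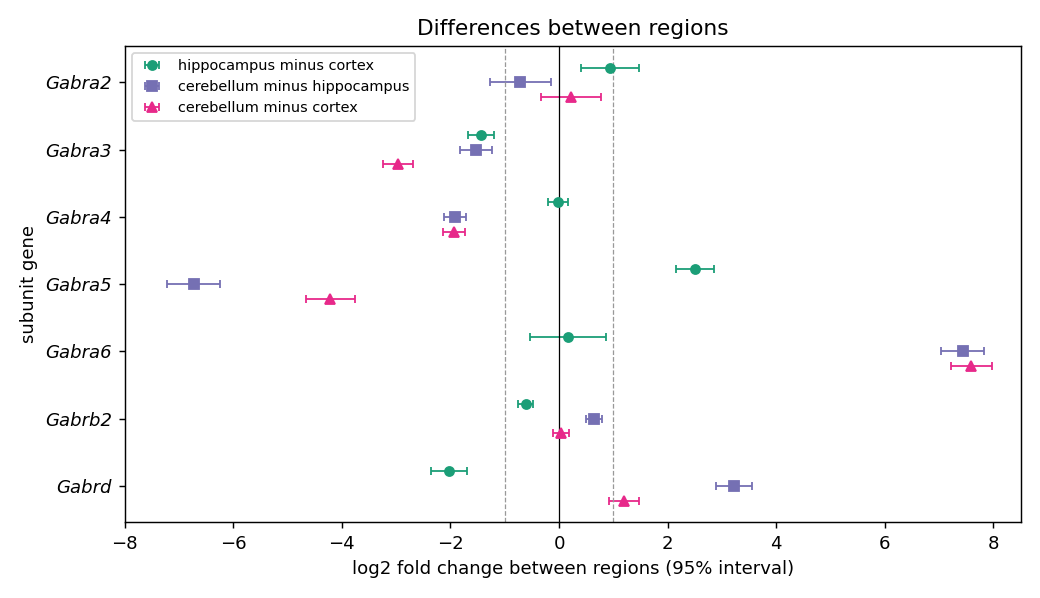
Log2 fold change of each subunit between regions, with its 95% interval from edgeR's quasi-likelihood fit over 22 libraries. Dashed lines mark a fold change of 2 in either direction. Gabra5 and Gabra6 have the widest differences, at -6.73 and 7.43 between cerebellum and hippocampus, while every value of Gabrb2 lies within 2-fold.

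Gabra6, the α subunit of cerebellar granule cells, had from 191 to 221 cpm in the 7 cerebella, with a median of 206 cpm. In the hippocampus it had 0.251 to 2.68 cpm (median 1.07) and in the cortex 0.622 to 1.79 cpm (median 1.13), which were 1 to 19 and 3 to 12 counts. The cerebellum was thus separate from both forebrain regions by far more than the spread between libraries, whereas the hippocampus and the cortex overlapped. The cerebellum exceeded the hippocampus 173-fold (log2 fold change 7.43, SE 0.19, FDR = 1.3e-20) and the cortex 193-fold (7.59, SE 0.18, FDR = 3.8e-21), both by edgeR's quasi-likelihood test. The 7 granule cell markers summed to 128 to 316 cpm in the hippocampi and cortices, against 2879 to 3829 cpm in the cerebella. Of these markers, Barhl1 and Fat2 were at or below 0.854 cpm in every forebrain library, whereas the other 5 were not near 0. Etv1 made up the largest part of the forebrain sum, at 67.3 to 260 cpm. Cbln3 had 9.76 to 19.0 cpm there, Neurod1 14.7 to 32.8 cpm, Zic1 3.80 to 19.5 cpm and Zic2 3.56 to 14.6 cpm. The forebrain sum is therefore no measure of granule cells. The highest Gabra6 among the hippocampi was that of CD mouse m242, at 2.68 cpm. The part of cerebellar RNA in the low forebrain counts of Gabra6 was not tested.

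Because Gabra6 and Gabra5 showed the widest differences between regions in opposite directions, the sequences at their transcript starts are shown, each from 250 bases before to 50 bases after the start of a RefSeq transcript on GRCm38.p6. Gabra6 lies on chromosome 11 from 42306437 to 42321072 and Gabra5 on chromosome 7 from 57407669 to 57591016, both on the minus strand, and the Gabra5 start shown lies within the annotated gene. Nuclear factor I proteins are known regulators of Gabra6 in granule cells, and capitals mark their half-site TTGGC or, on the other strand, GCCAA.
Gabra6 (chr11:42321023-42321322, minus strand): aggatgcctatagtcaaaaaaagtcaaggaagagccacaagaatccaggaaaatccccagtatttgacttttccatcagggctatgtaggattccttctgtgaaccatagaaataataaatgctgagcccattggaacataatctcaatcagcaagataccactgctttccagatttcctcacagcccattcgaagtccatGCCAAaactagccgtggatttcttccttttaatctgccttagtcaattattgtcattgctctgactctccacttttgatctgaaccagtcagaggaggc
Gabra5 (chr7:57510010-57510309, minus strand): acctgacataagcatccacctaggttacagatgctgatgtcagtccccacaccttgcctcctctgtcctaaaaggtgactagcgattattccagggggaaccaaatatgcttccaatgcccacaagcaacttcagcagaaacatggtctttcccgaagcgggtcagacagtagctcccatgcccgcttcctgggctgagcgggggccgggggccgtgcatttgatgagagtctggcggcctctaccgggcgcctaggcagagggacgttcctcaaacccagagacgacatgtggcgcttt
The Gabra6 window held 1 match and the Gabra5 window 0. Of the 9 windows of the 6 subunits that have one, 4 held a match, as did 46.7% of the 32851 windows of all genes, and no window was present for Gabrd. A match of 5 letters describes the sequence and is no evidence of a bound site.

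Gabra5, whose receptors carry tonic inhibition in hippocampal pyramidal cells, showed the reverse order. It had 605 to 731 cpm in the hippocampus (median 689), 55.1 to 190 cpm in the cortex (median 104) and 5.17 to 7.70 cpm in the cerebellum (median 6.57). The 3 regions did not overlap. Hippocampus exceeded cortex 5.71-fold (log2 fold change 2.51, SE 0.17, FDR = 1.2e-11) and cortex exceeded cerebellum 18.6-fold (log2 fold change of cerebellum minus cortex -4.22, SE 0.22, FDR = 1.0e-14, edgeR). Other transcripts of Gabra5 had up to 36959 counts against 37170 for the transcript used, and nearly the same counts in each library. The smallest, XM_006540557.3, had 2.35% of the counts of the transcript used. It had 7.62 to 27.7 cpm in the hippocampus, 0.870 to 8.23 cpm in the cortex and 0 to 0.407 cpm in the cerebellum. The ends of its ranges had the same order, but its hippocampus and cortex overlapped.

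The libraries of a region differed from each other unequally. The highest hippocampus had 1.21 times the Gabra5 of the lowest, whereas in the cortex this ratio was 3.46. Among the cortices, WT mouse m244 was lowest at 55.1 cpm, CD mouse m118 had 143 cpm, WT mouse m164 had 177 cpm and CD mouse m138 was highest at 190 cpm, so both genotypes held low and high libraries. The layer 4 gene Rorb ran the other way, at 29.0, 35.6 and 47.8 cpm in mice m118, m138 and m164 and between 64.6 and 91.0 cpm in the other 5 cortices. Over the 8 mice Pearson's r between the log2 levels of Gabra5 and Rorb was -0.82 (exact permutation p = 0.0128) and Spearman's rho -0.88 (exact p = 0.00724). After adjustment over the 12 cortex and hippocampus markers compared in this way, p was 0.153 and 0.0869, so the relation did not pass. Without the 2 mice farthest from the median of Rorb, r was -0.87. The relation was looked for after the values had been seen, and the layers or areas that each piece of cortex held were not measured.

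**Figure D3:**
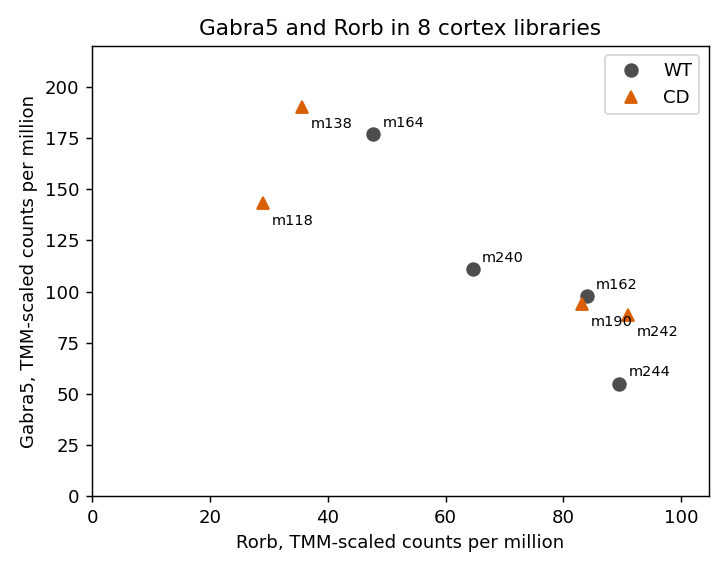
TMM-scaled cpm of Gabra5 (vertical axis) against Rorb (horizontal axis) in 8 cortex libraries, labelled by mouse number. Grey circles are WT and orange triangles are CD mice. The 3 libraries with the most Gabra5, at 143 to 190 cpm, are those with the least Rorb, at 29.0 to 47.8 cpm, and they come from both genotypes.

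Gabra3 encodes a subunit of receptors that are common in deep cortical layers and in monoaminergic neurons. In the cortex it had 27.4 to 40.8 cpm (median 33.8), in the hippocampus 7.51 to 16.6 cpm (median 13.8) and in the cerebellum 2.96 to 5.13 cpm (median 4.48). No 2 regions overlapped. The cortex exceeded the hippocampus 2.71-fold (log2 fold change of hippocampus minus cortex -1.44, SE 0.12, FDR = 4.5e-10) and the cerebellum 7.83-fold (-2.97, SE 0.13, FDR = 7.2e-16, edgeR). The gene lies on chromosome X from 72432676 to 72656919.

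Gabra4, which pairs with δ in extrasynaptic receptors of the forebrain, had 43.9 to 52.8 cpm in the hippocampus (median 46.8) and 41.2 to 63.0 cpm in the cortex (median 46.5). In the cerebellum it had 10.8 to 16.9 cpm (median 11.6), below every forebrain library. Hippocampus and cortex overlapped throughout and did not pass the test (log2 fold change -0.02, 95% interval -0.20 to 0.16, FDR = 0.89). The cerebellum was 3.76-fold below the hippocampus (-1.91, SE 0.10, FDR = 7.8e-15) and 3.81-fold below the cortex (-1.93, SE 0.10, FDR = 4.4e-15, edgeR).

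Gabrd, the δ subunit, rose in the order hippocampus, cortex, cerebellum. Its levels were 2.26 to 4.80 cpm in the hippocampus (median 3.93), 11.7 to 22.2 cpm in the cortex (median 14.8) and 32.8 to 42.8 cpm in the cerebellum (median 33.9), and the regions did not overlap. The cerebellum exceeded the hippocampus 9.38-fold (log2 fold change 3.23, SE 0.16, FDR = 4.9e-15) and the cortex 2.30-fold (1.20, SE 0.13, FDR = 2.2e-08), and the cortex exceeded the hippocampus 4.08-fold (-2.03 for hippocampus minus cortex, SE 0.16, FDR = 3.6e-10, edgeR). Gabra4 and Gabrd thus had different orders, with the 2 forebrain regions alike for Gabra4 and 4.08-fold apart for Gabrd. In the hippocampus Gabrd rested on 9 to 37 counts per library.

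Gabrb2, a β subunit of many receptors, varied least between regions. It had 90.6 to 123 cpm in the hippocampus (median 110), 148 to 173 cpm in the cortex (median 159) and 143 to 179 cpm in the cerebellum (median 171). Every hippocampus was below every other library, although by less than 2-fold. Its log2 fold change was -0.62 for hippocampus minus cortex (SE 0.07, FDR = 8.8e-08) and 0.65 for cerebellum minus hippocampus (SE 0.07, FDR = 1.7e-08), and 0.04 for cerebellum minus cortex (95% interval -0.11 to 0.18, FDR = 0.67, edgeR). Gabrb2 begins 98.4 kb from the start of Gabra6 on chromosome 11 of GRCm38 (42419515 to 42632591, plus strand), so these neighbours had regional differences of 1.57-fold and 173-fold between cerebellum and hippocampus.

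Gabra2, whose receptors sit at synapses of the forebrain and on the axon initial segment, had 82.9 to 223 cpm in the hippocampus (median 191), 39.4 to 137 cpm in the cortex (median 91.1) and 51.0 to 163.6 cpm in the cerebellum (median 105). The regions overlapped widely. The log2 fold change was 0.94 for hippocampus minus cortex (SE 0.26, FDR = 0.0064), -0.72 for cerebellum minus hippocampus (SE 0.27, FDR = 0.026) and 0.22 for cerebellum minus cortex (SE 0.27, FDR = 0.48, edgeR), so it did not pass the fold threshold in any of them. With the mouse as a replicate block, which compares regions within the same animal, the SE of hippocampus minus cortex dropped to 0.10 (log2 fold change 0.84, FDR = 1.0e-06). In the same paired fit cerebellum minus hippocampus was -0.56 (SE 0.10, FDR = 8.2e-05), now below an FDR of 0.01, and cerebellum minus cortex was 0.28 (SE 0.10, FDR = 0.017).

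Gabra2 differed between mice in all regions. The counts of each gene were therefore fitted with the 6 groups and the mouse within its genotype, a test that was added after these values had been seen. Gabra2 had the largest F of all 11137 genes (F = 29.2, FDR = 0.00021, edgeR), and 0.0629% of all genes, 7 in number, passed an FDR of 0.01. The other 6 were Capn11, Hbb-bt, Wdfy1, En1, Hba-a1 and Erdr1. With each library left out in turn, F of Gabra2 was between 22.5 and 44.2 and the FDR was at most 0.0023.

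CD mouse m190 had 82.9 cpm of Gabra2 in the hippocampus, 39.4 cpm in the cortex and 59.9 cpm in the cerebellum. WT mouse m164 had 54.4 cpm in the cortex and 51.0 cpm in the cerebellum, and no hippocampus library of it was analysed. These mice, of different genotype, were the lowest in every region in which they were measured. Mice m118 (CD) and m162 (WT) followed in the hippocampus and cerebellum, at 172.5 and 164.1 cpm in the hippocampus, 92.3 and 90.0 cpm in the cortex, and 105 and 96.4 cpm in the cerebellum. CD mouse m138 had 206 cpm in the hippocampus and 126 cpm in the cortex. CD mouse m242 had 215, 131 and 150 cpm and WT mouse m244 had 223, 137 and 149 cpm in hippocampus, cortex and cerebellum. WT mouse m240 was high in the hippocampus at 191 cpm and in the cerebellum at 163.6 cpm, but had 87.8 cpm in the cortex. Without its cerebellum library F rose to 44.2.

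**Figure D4:**
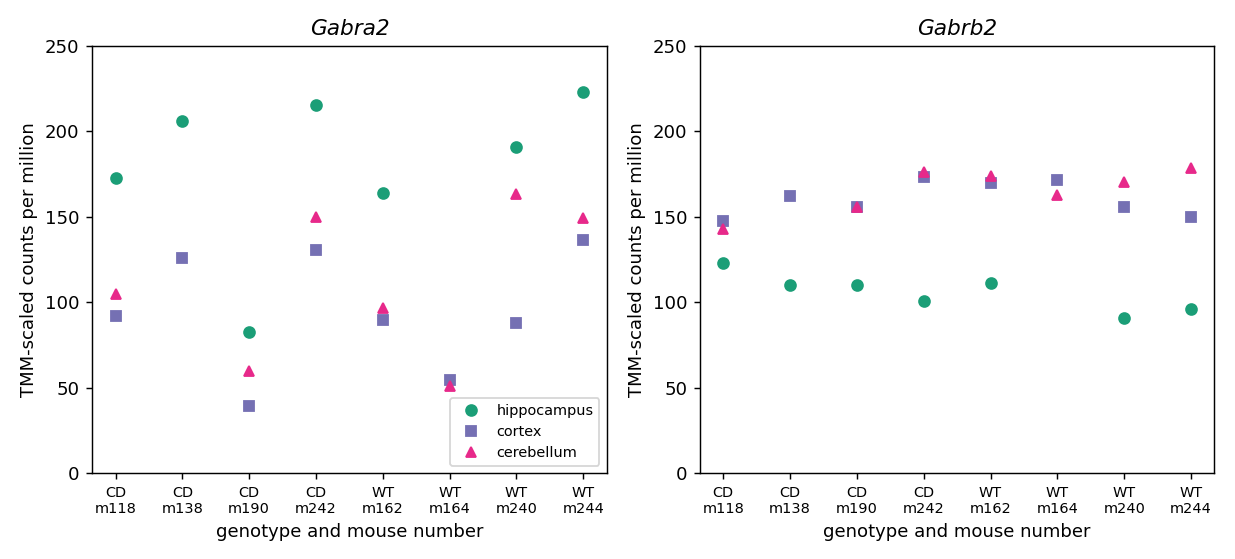
TMM-scaled cpm of Gabra2 (left) and Gabrb2 (right) by mouse, with the genotype above the mouse number and a symbol for each region. For Gabra2, mice m190 and m164 are lowest in every region measured, at 39.4 to 82.9 cpm, and mice m242 and m244 are high in every region, whereas Gabrb2 differs more between regions than between mice.

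The other 6 subunits did not pass the same test of the mouse, with FDRs of 0.81 or more. Among them Gabra5 had the largest F (F = 2.69, unadjusted p = 0.048, FDR = 0.81) and Gabrb2 had an F of 0.43. Gabra4, 473.9 kb from Gabra2 on chromosome 5 (Gabra2 runs from 70958392 to 71095849 and Gabra4 from 71569734 to 71658308), had an F of 1.38 (FDR = 0.90), and Gabrb1 an F of 1.63 (FDR = 0.88, edgeR). The second annotated transcript of Gabra2, NM_008066.3, had 1.59% of the counts of the transcript used (XM_006503733.3). In the hippocampus it had 16 to 30 counts per library, and the mouse with the lowest level of the main transcript there, mouse m190, had 2.49 cpm of it against 1.90 to 6.79 cpm over all hippocampi. Alleles at Gabra2 were not read, and their part in these levels was not tested.

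Genotype was compared next, within each region. By edgeR's quasi-likelihood test under the same thresholds, 0 subunits passed in the hippocampus, cortex or cerebellum, and 0 passed over the 3 regions by limma voom with the mouse as a random block. DESeq2 called 0 within each region. The share of all genes past these thresholds was 0% in each comparison. At an unadjusted p below 0.05, 1 of 5 subunits tested in the hippocampus (Gabra3), 0 of 6 in the cortex, 0 of 7 in the cerebellum and 1 of 7 over the regions (Gabra3) differed, beside 4.22%, 3.3%, 4.55% and 3.58% of all genes. Without the hippocampus of mouse m118 or that of mouse m244, 0 subunits passed between genotypes and the counts between regions were again 3, 5 and 5. Without mouse m118 the log2 fold changes in the hippocampus were -0.19 for Gabra2, -0.06 for Gabra4, -0.10 for Gabra5 and 0.12 for Gabrb2, against -0.19, -0.05, -0.06 and 0.16 with all 7 hippocampi. Without mouse m244 they were -0.07 for Gabra2, -0.07 for Gabra4, -0.11 for Gabra5 and 0.14 for Gabrb2. Gabra6 in the hippocampus and cortex and Gabrd in the hippocampus lay below the 5 cpm filter within the region.

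**Figure D5:**
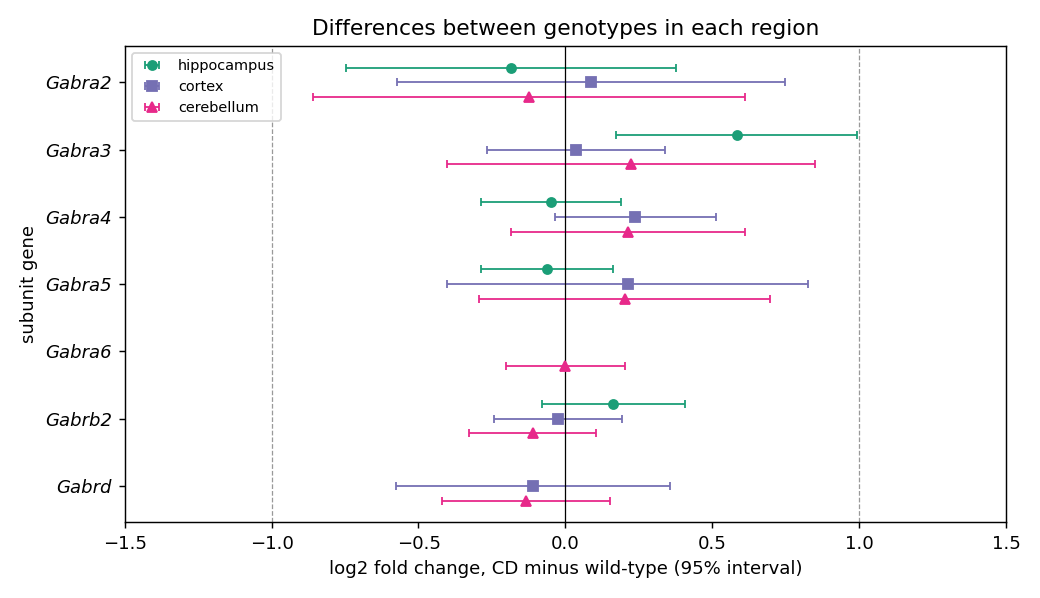
Log2 fold change of each subunit in CD minus WT mice in the hippocampus, cortex and cerebellum, with its 95% interval from edgeR's quasi-likelihood fit within the region. Dashed lines mark a fold change of 2. All intervals but that of Gabra3 in the hippocampus (0.17 to 0.99) include 0, those of Gabra2 are the widest, and subunits under the filter of a region have no symbol.

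Gabra3 in the hippocampus had 14.1, 16.6, 13.8 and 16.2 cpm in CD mice m118, m138, m190 and m242, and 11.8, 11.2 and 7.51 cpm in WT mice m162, m240 and m244. Every CD library was above every WT library, from 44 to 144 counts each. CD libraries had a mean of 15.2 ± 1.46 cpm (SD, n = 4) against 10.1 ± 2.30 cpm in WT libraries (SD, n = 3), and the log2 fold change was 0.58 (SE 0.19, 95% interval 0.17 to 0.99, unadjusted p = 0.0094, FDR = 0.9975 by edgeR). Of all genes tested in the hippocampus, 5.43% had genotypes that did not overlap. Without mouse m118, whose hippocampus goes against its label by the indirect Tulp4 measure, the log2 fold change was 0.62. It was 0.42 without WT mouse m244 and 0.45 without both. These fits had FDRs between 0.98 and 0.998. The hippocampus of WT mouse m244, lowest in Gabra3, was the library set apart above by Ttr (8093 cpm) and Fibcd1 (34.3 cpm). Fibcd1 is 1 of the 6 hippocampus markers, and the part of the dissection in the Gabra3 difference was not tested.

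In the other regions Gabra3 overlapped between the genotypes. It had 34.3 ± 1.43 cpm in CD and 33.3 ± 5.70 cpm in WT cortex (SD, n = 4 each), and 4.65 ± 0.42 cpm in CD (n = 3) and 3.95 ± 1.12 cpm in WT cerebellum (n = 4). Over the 3 regions its log2 fold change was 0.30 (SE 0.12, unadjusted p = 0.024, FDR = 0.9997 by limma voom). The difference of genotype did not itself differ between regions past the threshold (interaction F = 2.72, FDR = 0.999, edgeR).

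Gabra4 was the other subunit without overlap. In the cortex it had 46.6, 51.7, 48.1 and 63.0 cpm in CD mice m118, m138, m190 and m242 and 46.4, 43.0, 46.2 and 41.2 cpm in WT mice m162, m164, m240 and m244. The lowest CD and the highest WT cortex were 46.6 and 46.4 cpm, so the groups touched. Its log2 fold change was 0.24 (SE 0.13, 95% interval -0.04 to 0.51, unadjusted p = 0.083, FDR = 0.9998, edgeR), and 0.13 without CD mouse m242. Genotypes did not overlap for 2.53% of all genes in the cortex. In the cerebellum 0 subunits were without overlap, beside 5.33% of all genes.

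For the remaining subunits the intervals show which differences these libraries leave possible. Gabra6 in the cerebellum had 206.9 ± 6.13 cpm in CD (n = 3) and 207.3 ± 13.0 cpm in WT mice (SD, n = 4), with a log2 fold change of 0.00 and a 95% interval from -0.20 to 0.20. Gabra5 in the hippocampus had 668 ± 52.2 cpm in CD (n = 4) and 699 ± 44.2 cpm in WT mice (SD, n = 3), with an interval from -0.29 to 0.16. For Gabrb2 the intervals lay between -0.33 and 0.41 in all regions. Gabrd in the cerebellum had 34.3 ± 1.82 cpm in CD (n = 3) and 37.8 ± 5.41 cpm in WT mice (SD, n = 4), with an interval from -0.42 to 0.15.

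Gabra2 had the widest genotype intervals in each region among the subunits tested, from -0.75 to 0.38 in the hippocampus, -0.57 to 0.75 in the cortex and -0.86 to 0.61 in the cerebellum. Of the 2 mice of low Gabra2, CD mouse m190 enters all of these tests, whereas WT mouse m164 has no hippocampus library here. Leaving out 1 library moved its log2 fold change between -0.32 and 0.04 in the hippocampus, between -0.10 and 0.35 in the cortex and between -0.48 and 0.16 in the cerebellum. Its direction thus changed in each region, and the ends of these ranges came from leaving out mouse m190, m164 or m242. Over all 7 subunits, 0 passed the interaction of genotype and region at an FDR below 0.05 (every FDR 0.999, every unadjusted p above 0.05), as did 0% of all genes.

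The rest of the pathway was examined by lists of 40 genes, of which 29 were tested between regions. Of 9 further GABA-A subunits in these lists, 2 were tested (Gabrb1 and Gabrg3), and 0 passed between hippocampus and cortex. In the cerebellum both were below the hippocampus, Gabrg3 (log2 fold change -3.47, SE 0.23) and Gabrb1 (-1.32, SE 0.18), and 1 was below the cortex, Gabrg3 (-4.00, SE 0.23), with FDRs of 9.8e-07 or less by edgeR, where 13% and 12.9% of all genes were lower in the cerebellum. In the comparison of cerebellum and hippocampus this is the direction of Gabra3, Gabra4 and Gabra5, and the reverse of that of Gabra6 and Gabrd.

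Of the 4 genes of GABA synthesis and breakdown, 0 passed in any regional comparison. Among 4 transporters, Slc32a1, which loads GABA into vesicles, was higher in the cerebellum than in the hippocampus (1.43, SE 0.09) and the cortex (1.09, SE 0.09), and Slc6a11, a glial GABA transporter, was lower (-2.01, SE 0.12, and -1.70, SE 0.12). Slc6a13 was higher in the cerebellum than in the hippocampus (1.37, SE 0.22). Among 4 tested genes of GABA-B receptors, the auxiliary subunit Kctd8 was higher in the cerebellum than in the hippocampus (1.92, SE 0.19) and the cortex (1.36, SE 0.18). Kctd12, another auxiliary subunit, was lowest in the cortex, against which hippocampus (1.49, SE 0.09) and cerebellum (1.78, SE 0.09) were higher. These values are log2 fold changes past both thresholds by edgeR. Of all genes, 9.76% and 9.7% were higher in the cerebellum than in the hippocampus and the cortex, and 13% and 12.9% were lower. Between hippocampus and cortex, 4.03% of all genes were higher in the hippocampus and 4.38% in the cortex.

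Of 13 tested genes of the inhibitory postsynaptic scaffold and receptor trafficking, 1 was higher in the hippocampus than in the cortex, Hap1 (log2 fold change 1.12, SE 0.14), which aids receptor recycling, beside 4.03% of all genes. In the cerebellum 4 of 13 were below the hippocampus and 3 of 13 below the cortex, beside 13% and 12.9% of all genes. Below the hippocampus were Shisa7, an auxiliary protein of GABA-A receptors (-3.51, SE 0.13), Plcl1 (-1.42, SE 0.13), Iqsec3 (-1.16, SE 0.07) and Hap1 (-1.13, SE 0.15), and below the cortex were Shisa7 (-2.75, SE 0.13), Iqsec3 (-1.19, SE 0.07) and Gabarapl1 (-1.16, SE 0.06). Of the 2 chloride transporters, Slc12a2, which brings chloride into the cell, was higher in the cerebellum than in the cortex (1.20, SE 0.09). Over the 29 genes the median log2 fold change was -0.03 for hippocampus minus cortex, 0.07 for cerebellum minus hippocampus and -0.0082 for cerebellum minus cortex, against 0.01, 0.02 and 0.02 for all genes. Between genotypes, 0 of these genes passed the thresholds in any region by edgeR or over the regions by limma voom, and at an unadjusted p below 0.05 there were 0 of 29 in the hippocampus, 0 of 29 in the cortex, 3 of 28 in the cerebellum and 0 of 29 over the regions, beside 4.22%, 3.3%, 4.55% and 3.58% of all genes. The 3 in the cerebellum were Gad2 (log2 fold change CD minus WT -0.24, SE 0.10), Gphn (-0.36, SE 0.15) and Kctd8 (-0.46, SE 0.19), each with an FDR of 0.98 by edgeR.

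For each subunit the 3 genes (2 are given for Gabra3) of most similar pattern over the 22 libraries were found among all genes past the filter, by the root mean square difference of their centred log2 cpm. Gabra6 was nearest to Pcp2, Cbln3 and Ppp1r17 (0.43 to 0.56), and Gabra5 to Bcl11b, Myo5b and Cpne6 (0.42 to 0.51). Gabrd was nearest to Plxdc1, Rora and Garnl3 (0.32 to 0.38), Gabra4 to Cmip, Slc1a2 and Cyria (0.16 to 0.19), and Gabra3 to Crip2 (0.30) and Fxyd7 (0.35). Gabrb2 was nearest to Myh10, St3gal5 and Tbl1x (0.14 to 0.15). Gabra2 was nearest to Zfp503, Skap2 and Smim15 (0.44 to 0.46). Between subunits the smallest difference was that of Gabra3 and Gabra4 (0.66) and the largest that of Gabra5 and Gabra6 (5.98).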

How the data were processed

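Per the labels and methods, the authors used STAR to align CelSeq2 reads (6-base molecular identifiers) to mm10, the End Sequence Analysis Toolkit to count them and edgeR for testing, with versions not given in the sources used here, and deposited raw counts per RefSeq transcript with no normalization. Whether identifiers were collapsed is not given, so counting error is a lower limit of the error. Of 85964 transcripts, 69288 were matched by accession without version to RefSeq on GRCm38 (34840 with the same version), and the transcript with the highest total represented each gene. A gene whose transcripts share a 3′ end may have divided or repeated counts.

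Genes with 5 cpm in at least 2 libraries were kept and scaled by TMM. Regions were compared over 22 libraries with 6 group means, genotypes within each region, with edgeR 4.0.16 (glmQLFit, glmQLFTest) in R 4.3.3, and genotypes over regions with limma 3.58.1 (voom, duplicateCorrelation). FDR is Benjamini-Hochberg over all genes tested. Levels are TMM-scaled cpm over 22 libraries, and log2 cpm for likeness used a prior count of 2. Marker relations used a pseudocount of 0.5 cpm, scipy and exact permutations, all two-sided. DESeq2 1.42.0, RLE scaling, no filter, summed transcripts, the mouse as a block, single genotypes and leaving out libraries were tried. Tests were checked on simulated counts. The labels number the mice, and libraries of the same number were taken to come from the same animal, which was not tested. For mouse m118 the hippocampus went against its label by the indirect Tulp4 measure, whereas the cortex and cerebellum did not. The mean correlation of the deviations of libraries of the same number was 0.083 for hippocampus and cortex, 0.047 for cerebellum and hippocampus and -0.0036 for cerebellum and cortex. Libraries of different mice were not correlated for comparison.

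The members and gene lists were chosen with earlier results of these data known. All 7 subunits are named, with those genes of each pathway list past the thresholds in a comparison (up to 4, largest fold change first), the 3 nearest genes of each subunit, and markers where a library stood apart. Some genes of these lists are not reported here and were left out of the counts and medians of the lists. The mouse test and the Rorb relation were added after values had been seen. Promoter windows are from RefSeq, GRCm38.p6. Depth limits Gabra6 in the forebrain and Gabrd in the hippocampus most.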

Additional observations from a re-analysis of the deposited data

Results flagged for a closer look

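Of 28 groups of 4 libraries (7 subunits in 4 groups), Dixon's test set 1 library apart, and chance alone marks about 1 in 20 groups, or 1.4 of these. Gabra5 in the cerebellum of WT mouse m162 was 7.70 cpm, against 5.17 to 5.55 cpm in the other 3 WT cerebella. Groups of 3 libraries were not examined in this way.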

How the results depend on the processing

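Between regions, the counts of subunits past the thresholds were 5, 5 and 3 (cerebellum against hippocampus, cerebellum against cortex, hippocampus against cortex) under DESeq2, RLE scaling, no filter, summed transcripts, the mouse as a replicate block and each genotype alone. Summing transcripts could change little for these subunits. Gabra3, Gabra4 and Gabrb2 had 1 transcript each. The sums of Gabra5 (37170 and 36959 counts) and Gabrd (2394 and 2383 counts) were mostly of near repeats. Within regions, 0 passed between genotypes under DESeq2, RLE scaling, no filter, a filter over all libraries, 1 fit of all libraries and summed transcripts. Over the regions 0 passed with no filter, summed transcripts or no replicate block, and 0 passed for the interaction with no filter or summed transcripts. With each library left out the region counts were 5, 5 and 3 to 4 and the others 0, the fourth being Gabra2 (log2 fold change 0.81 to 1.05). The replicate block changed no call past both thresholds. For Gabra2 it brought only the FDR of cerebellum minus hippocampus below 0.01, as given above.

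Directions reversed for small differences. Gabra4 for hippocampus minus cortex was 0.13 and Gabra6 was -0.0048 in WT libraries alone, and Gabrb2 for cerebellum minus cortex was -0.0069 in CD libraries alone. For CD minus WT, Gabra6 in the cerebellum was -0.0026 with all libraries in one fit and -0.0141 with summed transcripts, and Gabrd over the regions was -4e-04 with no replicate block. With a library left out, CD minus WT ranged for Gabra2 from -0.48 to 0.155 (cerebellum), -0.095 to 0.35 (cortex), -0.32 to 0.044 (hippocampus) and -0.21 to 0.028 (all regions), for Gabra3 in the cortex from -0.057 to 0.15, for Gabra4 from -9e-04 to 0.35 (cerebellum) and -0.088 to 0.024 (hippocampus), for Gabra5 in the cortex from -0.037 to 0.54, and for Gabra6 in the cerebellum from -0.034 to 0.033. It ranged for Gabrb2 from -0.067 to 0.013 (cortex) and -0.02 to 0.036 (all regions), and for Gabrd from -0.26 to 0.034 (cortex) and -0.028 to 0.087 (all regions). Between regions, hippocampus minus cortex ranged from -0.053 to 0.033 for Gabra4 and from -0.093 to 0.33 for Gabra6, and cerebellum minus cortex from -0.0063 to 0.071 for Gabrb2. The cause was not tested. Depth limits Gabra6 in the forebrain and Gabrd in the hippocampus.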
